A study of Mus musculus with 32 samples.

Results

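The comparison described here set the liver transcriptome of male mice whose mothers ate a 9% protein diet in pregnancy against that of males whose mothers ate an 18% diet, with all offspring on a high-fat diet. It was chosen by title, sex and array version, and holds 8 of the 32 arrays of the series, 4 per group, with every feature detected in males as its subject. All mice were C57bl/6J OlaHsd. In gestation the dams ate either the control diet, labelled 18%, or the low-protein diet, labelled 9%, in which casein made up 90 g per kg. The pups went onto a high-fat diet at 6 weeks, labelled SF with a fat content of 36%, and stayed on it for 14 weeks until liver was taken at 20 weeks. The remaining 8 male arrays hold the same maternal groups on control diet, and the 16 female arrays were run on another array version. The labels call the arrays of a group biological replicates. They name neither litter nor slide, so siblings cannot be told from unrelated mice, and p-values would be too small if a group held siblings. By its title the series asks how maternal protein restriction programmes glucose and fat metabolism of the offspring in each sex.

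Protein restriction in pregnancy is a standard rodent model of developmental programming, in which the diet before birth is asked to alter metabolism in the adult. In the liver the pathways of interest include fatty acid and cholesterol synthesis under the receptor LXR and the transcription factor SREBP. Others are fat oxidation under PPAR-alpha, gluconeogenesis, and the hormones that the liver secretes, such as IGF1 and FGF21. A high-fat diet loads hepatocytes with lipid droplets, whose coat proteins are encoded by genes such as Plin2, Cidea and Cidec.

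Between 44.0% and 47.2% of probes gave a detection p under 0.05 on the 8 arrays. Mean raw intensity was 252 ± 26.0 (SD, n = 4) after 9% and 245 ± 56.8 (SD, n = 4) after 18%, a difference of 6.88 (exact two-sided permutation test, p = 0.886; the smallest p that 70 splits allow is 0.0286). Replicate 3 of the 18% group was the dimmest, at 170. Replicate 1 of the 18% group stood apart on the first principal component of the 16 male arrays, at 38.8 against -16.4 to 21.8 on the others, and had the lowest mean correlation with its own group, 0.971. The median SD of a feature was 0.254 after 18% and 0.174 after 9% (log2). Of 16 hepatocyte markers with a probe, 14 were detected on all 8 arrays, while 0 of 11 markers of kidney and muscle were detected on any. Of 12 pancreas acinar markers with a probe 3 were detected on all 8 arrays, and of 10 adipocyte markers 3 were.

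No gene was called between the maternal diets. Of 10297 features tested with limma, 0 passed an adjusted p of 0.05 (0%), and the smallest adjusted p was 0.433. At an unadjusted p under 0.05 there were 713 features (6.92%), against 515 expected by chance alone. Features are not independent, so how far chance can move that count is not known here. Of the 713 features 292 were higher after 9% (2.84%) and 421 lower (4.09%). The count depended on single livers of the 18% group: it was 416 without replicate 1, 1074 without replicate 2 and 1196 without replicate 3, while the count of calls was 0 in each case. The 4 values of one group lay wholly above or below those of the other for 348 features (3.38%), 170 of them with the 9% group above (1.65%) and 178 with it below (1.73%).

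The differences were small for most genes. The median difference was -0.01 on the log2 scale, with quartiles of -0.14 and 0.12, and 4929 features (47.9%) lay above 0. The 95% interval, which covers a single feature at a time, lay within a 2-fold change in either direction for 9781 features and within a 1.5-fold change for 7018 (68.2%). Only 8 features differed by more than 1 and 10 by less than -1, and none of these 18 passed the test.

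**Figure D1:**
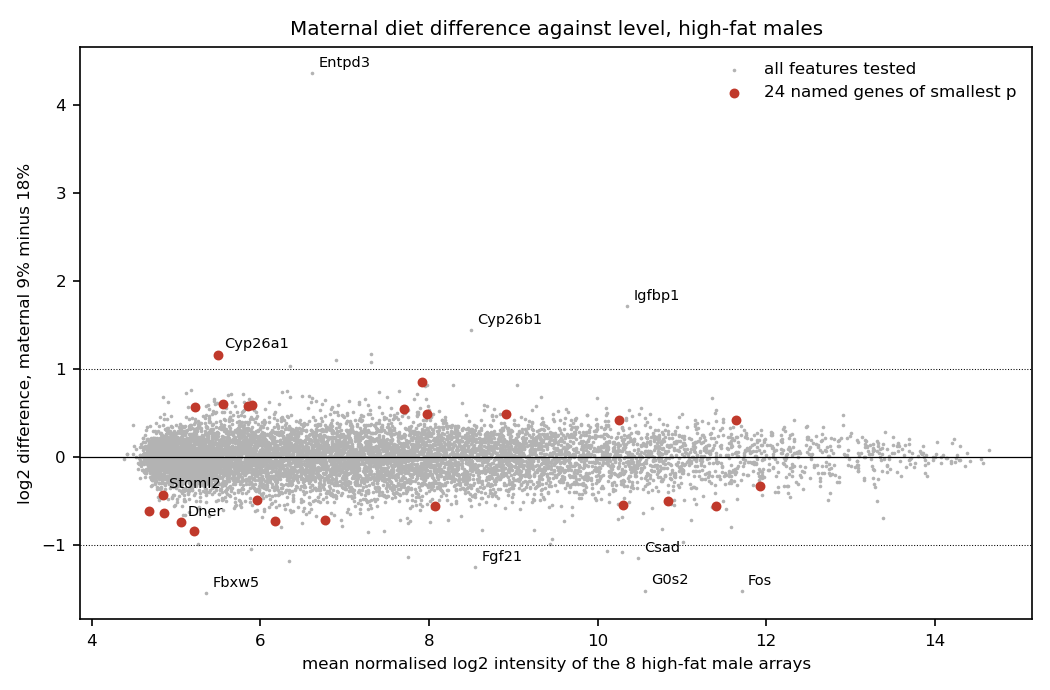
Difference between maternal diets (vertical axis, log2, 9% minus 18%) against mean normalised log2 intensity of the 8 high-fat male arrays (horizontal axis) for all 10297 features tested, each a grey point. Red points are the 24 named genes of smallest p, and dotted lines mark a difference of 1 in either direction; Entpd3 lies farthest from 0, at 4.37.

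The 24 named genes of smallest unadjusted p are given as values, since none passed the test. Of them 11 had the higher mean after 9% and 13 after 18%, with differences of 0.34 to 1.16 in size (log2), unadjusted p up to 0.0027 and limma adjusted p of 0.433 to 0.694. In 18 of the 24 the groups did not overlap, a share that follows from choosing by p, and 17 were detected on all 8 arrays.

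Stoml2, which encodes a stomatin-like protein of the inner mitochondrial membrane, had the smallest p. Its log2 intensity after 9% was 4.59, 4.67, 4.68 and 4.58, and after 18% it was 4.94, 5.10, 5.01 and 5.19. All 4 livers of the 9% group were below all 4 of the 18% group, by -0.43 ± 0.08 (SE) on average, with a 95% interval of -0.59 to -0.26 and a limma adjusted p of 0.433. The signal was dim: the probe was above background on 0 of 4 arrays after 9% and on 4 of 4 after 18%, so the 18% level can be stated only as at least 1.17-fold higher. The probe passed the detection filter only through the 4 arrays of the group in which it was high, so that the direction was favoured before the test. With the deposited normalised values the difference was -1.34.

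Dner, a transmembrane ligand of Notch receptors known from neurons, was also not above background on any array after 9% (4.64, 4.75, 4.73 and 4.62). After 18% its values were 5.86, 5.77, 5.12 and 4.97, all above the 9% group and themselves spread over a wider range. The level after 18% was at least 1.51-fold that after 9% (fitted difference -0.75 ± 0.17, limma adjusted p = 0.671; -1.67 with the deposited normalised values). Myom2, a protein of the sarcomere M-band, showed a like arrangement near background, with 4.45, 4.38, 4.35 and 4.30 after 9% and 5.34, 5.35, 4.71 and 4.53 after 18%. It was detected on 0 and 2 arrays, and its bound was at least 1.11-fold. Its probe thus met the detection filter with no high-fat array of the 9% group, so that the direction was favoured before the test.

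Further genes of the 24 with the lower mean after 9% included Copb1, Kpnb1 and Fzd1, set together here by description only. Copb1, a subunit of the COPI vesicle coat, measured 5.92, 5.76, 5.60 and 5.94 after 9% and 7.15, 6.41, 6.25 and 6.36 after 18%, with no overlap. The difference of -0.74 ± 0.17 was carried partly by replicate 1 of the 18% group, the liver that stood apart, and was -0.53 without it. Kpnb1, the importin that carries proteins into the nucleus, had a difference of -0.56 ± 0.15, again with all 9% values below all 18% values. The Wnt receptor Fzd1 differed by -0.84 ± 0.20, or by -1.73 with the deposited normalised values, and was detected on 2 arrays after 9% and 4 after 18%.

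Lamp2, a glycoprotein of the lysosomal membrane, was bright and tightly grouped. It measured 11.80, 11.74, 11.73 and 11.75 after 9% and 12.22, 12.08, 12.00 and 12.07 after 18%, with no overlap and a difference of -0.34. A second probe for Lamp2 differed by -0.04 ± 0.14, so the probes did not give the same value. Plpp3, a phosphatase of lipid phosphates, behaved likewise, with -0.56 by its brighter probe and -0.03 by the other. Rnf103, a ubiquitin ligase of the endoplasmic reticulum, differed by -0.50 ± 0.13, and its groups overlapped through replicate 2 of the 18% group.

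Rpl29, Ddx24, Grwd1, Eif4e2 and Lsm12 were among the 11 with the higher mean after 9% on the probe tested, and the other probes of Ddx24, Eif4e2 and Lsm12 gave smaller differences. Rpl29, a protein of the large ribosomal subunit, measured 9.03, 9.34, 9.02 and 9.27 after 9% and 8.83, 8.61, 8.62 and 8.64 after 18%, a difference of 0.49 ± 0.12 with no overlap (limma adjusted p = 0.671). Ddx24, an RNA helicase, measured 8.23, 8.46, 8.12 and 8.56 after 9%, and 6.79, 7.81, 7.59 and 7.75 after 18%, where replicate 1 was the lowest. Its difference was 0.86 ± 0.23, or 0.62 without that replicate, and 0.23 ± 0.16 by its second probe. Grwd1, which takes part in ribosome assembly, differed by 0.60 ± 0.14. Eif4e2, a cap-binding protein that competes with the translation factor eIF4E, differed by 0.42 ± 0.11, but by 0.06 ± 0.19 on its dimmer probe, and Lsm12, an RNA-binding protein, by 0.49 on the probe tested and by 0.03 and 0.05 on a further pair.

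Cyp26a1, the enzyme that clears retinoic acid, had the largest difference of the 24. After 9% it measured 7.07, 5.29, 5.69 and 6.28, and after 18% 4.69, 5.38, 4.78 and 4.83. Replicates 1 and 4 of the 9% group were the highest, replicate 2 lay below the highest 18% liver, and the groups overlapped. The difference was 1.16 ± 0.30, or 2.24-fold, with a 95% interval of 0.52 to 1.81 (limma adjusted p = 0.694), and it was 0.83 without replicate 1 of the 9% group and 1.95 with the deposited normalised values. The probe was detected on 4 arrays after 9% and 2 after 18%. A second Cyp26a1 probe differed by 0.75 ± 0.29. Cyp26b1, a related retinoic acid hydroxylase, measured 10.15, 8.02, 8.23 and 10.47 after 9% and 8.02, 8.51, 6.70 and 7.85 after 18%; here too replicates 1 and 4 were the highest, and the difference of 1.45 ± 0.78 did not pass the test.

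The Cyp26a1 promoter is printed because that enzyme is known as a target of its own substrate, through a direct repeat of the retinoic acid receptor hexamer with a 5-base spacer. In RefSeq on GRCm38.p6 the window is chr19:37697558-37697857 on the plus strand, from 250 bases before to 50 bases after the gene start, with the repeat in capitals.
Cyp26a1: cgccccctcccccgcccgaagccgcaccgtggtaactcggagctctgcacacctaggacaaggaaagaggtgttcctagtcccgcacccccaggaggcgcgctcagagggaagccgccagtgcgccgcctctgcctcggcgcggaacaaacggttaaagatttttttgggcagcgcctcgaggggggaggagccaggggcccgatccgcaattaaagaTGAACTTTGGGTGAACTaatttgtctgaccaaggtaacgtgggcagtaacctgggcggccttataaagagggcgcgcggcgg
The window holds 2 repeats of a 6-base word spaced by 5 bases, and the one nearer the gene start, which ends 15 bases before it, was taken as the motif after the values and the sequence had been seen. Spelt out it is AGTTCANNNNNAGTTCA, and on the other strand TGAACTNNNNNTGAACT. Read on both strands, it is in 8 of 32851 promoter windows of this length (0.0244%). Of the 24 genes 21 had a window, and the 1 that held the motif was Cyp26a1 itself, from which it was read, so this count is no finding. The window of Cyp26b1 holds no match to these letters.

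**Figure D2:**
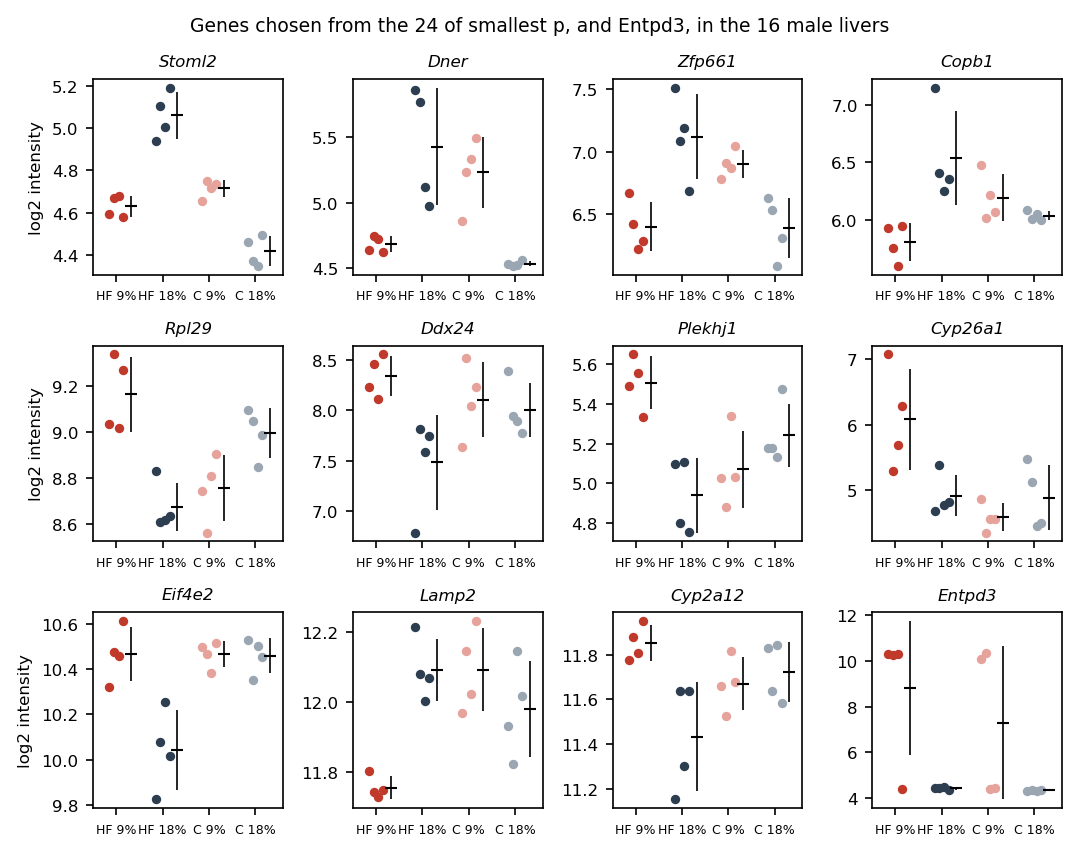
Normalised log2 intensity (vertical axes, each on its own scale) of 11 genes chosen from the 24 of smallest p, and of Entpd3, on the 16 male arrays: high-fat (HF) and control diet (C) after maternal 9% or 18%. Each point is 1 liver, and the dash and bar beside the points are the mean and SD of 4 livers; among these chosen panels the high-fat groups overlap in Cyp26a1 and Entpd3.

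The largest difference of all was at Entpd3, an ectonucleotidase that splits extracellular ATP. It is singled out after its values were seen. After 9% it measured 10.28, 10.25, 10.27 and 4.40, and after 18% 4.44, 4.45, 4.50 and 4.34. In raw intensity the high 9% livers read 1107, 995 and 1269, and the other 5 livers read -3.29 to 2.23. On control diet the 9% livers read 10.07, 10.32, 4.39 and 4.45, and the 4 livers after 18% were all low. The probe was thus above background on 5 of 8 male arrays after 9% and 0 of 8 after 18%, with a gap of 5.57 between the lowest high value and the highest low value and nothing in between. No other feature of the 10297 split the 16 male arrays with a gap over 4.

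The high-fat difference at Entpd3 was 4.37 ± 1.33 and did not pass the test (limma adjusted p = 0.694). By the bound for an undetected group the means were at least 15.7-fold apart. The 9% mean includes replicate 4, itself at background, so that ratio describes no single liver. With the deposited normalised values the difference was 7.22. The probe met the detection filter only through arrays of the 9% groups, so its direction was fixed by the filter. The gene had only 1 probe on the male version, so that signal of this probe is all that was measured. The female version carried another probe, detected on 0 of 16 female arrays, so the pattern could not be looked at there. The cause of the split was not tested.

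The genes looked up for metabolism showed no call. Nr1h3, which encodes LXR-alpha, measured 10.25, 10.14, 10.34 and 10.27 after 9% and 9.67, 10.39, 10.51 and 10.05 after 18%, a difference of 0.09 ± 0.15 with an interval of -0.22 to 0.41. Ppara differed by 0.10 ± 0.26 and Pck1, the gatekeeper of gluconeogenesis, by -0.05 ± 0.27. Cyp7a1, the rate-limiting enzyme of bile acid synthesis, ranged from 7.03 to 11.71 after 9% and from 9.53 to 10.75 after 18%, and its interval of -2.09 to 1.16 left little precision. The probes of Srebf1 and Cpt1a were detected on 0 of 16 male arrays and not tested.

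The synthesis enzymes were bright and overlapped between groups. Fasn, the fatty acid synthase, measured 12.08, 11.73, 12.46 and 11.96 after 9% and 12.56, 12.18, 12.58 and 12.73 after 18%, with a difference of -0.46 ± 0.27 (limma adjusted p = 0.715). Acaca, which supplies it with malonyl-CoA, differed by -0.47 ± 0.21 and by -0.23 ± 0.13 on its second probe. The desaturase Scd1 averaged 13.88 in both groups, and its interval, -0.29 to 0.28, was narrow. Insig1, a brake on SREBP, differed by 0.28 ± 0.41, and Cyp4a14, a PPAR-alpha target, by 0.14 ± 0.69.

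Lipid droplet genes included some in which 1 liver stood apart. Cidea measured 7.11, 10.54, 7.02 and 6.81 after 9% and 9.79, 7.88, 8.71 and 7.97 after 18%. In the 9% group replicate 2 was far above the others, which were all below every 18% liver; the difference was -0.72 ± 0.61, and -1.61 without replicate 2 but -0.31 without replicate 1 of the 18% group. The same liver was the highest of its group in Cidec (10.78 against 8.16 to 8.82), in the droplet coat gene Plin2 (12.98) and in Apoa4 (12.62), and the lowest in G0s2, an inhibitor of fat breakdown, at 7.19 against 10.20 to 11.20. G0s2 after 18% stood at 11.32, 11.13, 11.51 and 11.36, with a difference of -1.52 ± 0.82 that did not pass the test. Cidec differed by -0.32 ± 0.51, Plin2 by -0.20 ± 0.20 and Apoa4 by 0.05 ± 0.43, and without replicate 2 of the 9% group they differed by -0.87, -0.31 and -0.27. Without replicate 1 of that group Cidec differed by -0.00 and Apoa4 by 0.23, and without replicate 3 Plin2 differed by -0.06. Of the 19 droplet genes tested 5 had the higher mean after 9% and 14 after 18%, with a median of -0.15 beside -0.01 over all features. That median was -0.06 without replicate 1 of the 9% group and -0.26 without replicate 2. None passed the test and none had an unadjusted p under 0.05.

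High-fat feeding itself changed droplet genes after both maternal diets. Against control-diet males of the same maternal diet, 4 of the 19 passed the limma threshold after 18% and 3 after 9%. Cidec rose by 3.94 after 18% and by 3.54 after 9%, with 3 of 4 control-diet arrays detected in each case. Over all features the high-fat diet gave 65 calls after 18% (0.631%) and 11 after 9% (0.107%). The test of the difference between these effects is the interaction, which called 0 features (0%), and its smallest adjusted p among the droplet genes was 0.690.

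Liver hormones and their partners differed in how wide their intervals were. Igfbp1, a binding protein of insulin-like growth factors that insulin represses, measured 10.88, 12.16, 10.57 and 11.21 after 9% and 9.26, 10.52, 8.61 and 9.58 after 18%. All 9% livers were above all 18% livers, although 10.57 and 10.52 nearly touched. The difference was 1.71 ± 0.91, or 3.28-fold, with an interval of -0.22 to 3.64 (limma adjusted p = 0.699). Igf1 did not overlap either, at 11.11, 11.05, 11.31 and 10.98 after 9% and 10.95, 10.95, 10.85 and 10.79 after 18%, a difference of 0.23 ± 0.12. Ghr, the growth hormone receptor, went with the higher mean after 18%, by -0.34 ± 0.11 with no overlap, and its kinase Jak2 differed by -0.32 ± 0.16, or by -0.12 ± 0.13 on its second probe.

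Fgf21, a fasting and stress hormone of the liver, measured 7.57, 7.17, 7.15 and 9.80 after 9% and 9.54, 8.64, 9.16 and 9.37 after 18%. Replicates 1 to 3 of the 9% group were below every 18% liver and replicate 4 was above them all. The difference was -1.26 ± 0.61 (limma adjusted p = 0.694), and -1.88 without replicate 4. Inhbe, a hepatokine of the activin family, differed by -1.19 ± 0.53. Over the 14 genes of the growth hormone and IGF list 6 had the higher mean after 9%, and 4 did not overlap, with 2 in each direction, beside 1.65% with the 9% group above and 1.73% with it below over all features. The list median was -0.02.

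**Figure D3:**
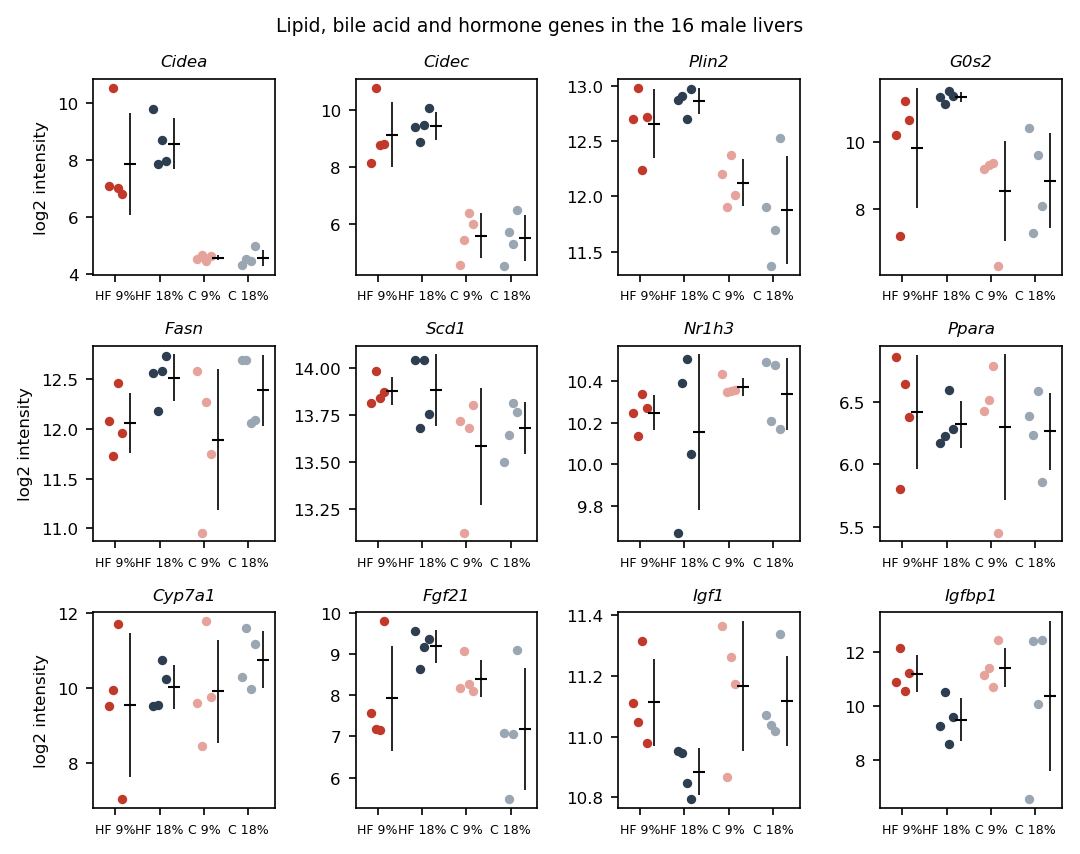
Normalised log2 intensity (vertical axes, each on its own scale) of 12 lipid, bile acid and hormone genes on the 16 male arrays, by offspring diet (HF high-fat, C control) and maternal diet. Each point is 1 liver, and the dash and bar are the mean and SD of 4. In the high-fat groups only Igf1 and Igfbp1 separate. Replicate 2 of the 9% group lies apart in Cidea, Cidec and G0s2, and its replicate 4 in Fgf21.

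In the oxidative phosphorylation list, 36 of 43 subunit genes tested had the higher mean after 9% and 7 had it after 18%. Over all features 47.9% were higher. The list median was 0.15, or 0.10 to 0.20 over 18 alternative settings. The subunits were measured in the same livers, so the count does not stand for independent tests. In each liver the median deviation of these genes from their level over the male arrays was taken. It was -0.02, 0.13, 0.10 and 0.19 after 9% and -0.08, 0.04, -0.13 and -0.01 after 18%, so the groups overlapped. The shifts were small and 0 of the 43 passed the test; 6 had an unadjusted p under 0.05, all higher after 9%, beside 2.84% of all features. Ndufs3, a complex I subunit, measured 11.67, 11.61, 11.56 and 11.56 after 9% and 11.23, 11.43, 11.29 and 11.26 after 18%, a difference of 0.30 ± 0.09 with no overlap, and 0.37 ± 0.17 on its second probe. Ndufa5, also of complex I, differed by 0.40 ± 0.12 with no overlap, and by 0.21 ± 0.14 on its second probe. In control-diet males 19 of the 43 had the higher mean after 9%, with a median of -0.01, and in high-fat females, on the other array version, 48 of 50 did, with a median of 0.13.

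Cytosolic ribosomal proteins had the higher mean after 9% in 20 of 29 genes, with a median of 0.06 and 5 unadjusted p under 0.05, all in that direction, beside 2.84% of all features. Rps15 differed by 0.36 ± 0.12 with no overlap and Rpl36 by 0.51 ± 0.20. In the proteasome list 21 of 34 did, with a median of 0.04. Psmb1, a subunit of the proteasome core, measured 10.85, 10.77, 10.71 and 10.81 after 9% and 10.21, 10.52, 10.52 and 10.32 after 18%, 0.40 ± 0.11 apart with no overlap. The members of both lists were measured in the same livers, and the median deviations per liver overlapped between groups. In high-fat females 11 of 27 ribosomal genes had the higher mean after 9%, with a median of -0.01. Among proteasome genes 22 of 33 did, with a median of 0.05.

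Lists with the higher mean after 18% included heat shock proteins, in 12 of 14 genes with a median of -0.19, and peroxisomal fat oxidation, in 12 of 15 with a median of -0.07. In high-fat females 12 of 17 heat shock genes had the higher mean after 9%, with a median of 0.12. Of their peroxisomal genes 10 of 16 did, with a median of 0.04. In high-fat males the chaperone Hsp90aa1 differed by -0.66 ± 0.24 with no overlap and was detected on 2 arrays after 9%. Hspb1, a small heat shock protein, differed by -0.99 ± 0.52, with replicate 3 of the 18% group, the dimmest array, the highest at 11.74. Matrix and fibrosis genes had the higher mean after 18% in 20 of 23 genes, with a median of -0.12 and 2 unadjusted p under 0.05, both in that direction, beside 4.09% of all features. In high-fat females the matrix median was -0.07, with 8 of 22 genes higher after 9%. In high-fat males the median ran from -0.32 without replicate 2 of the 9% group to -0.07 without replicate 4 of the 18% group. Col3a1, a fibrillar collagen, measured 4.81, 6.16, 5.07 and 5.41 after 9% and 7.13, 6.14, 5.28 and 7.12 after 18%, a difference of -1.05 ± 0.36 with overlap. Col18a1, a basement membrane collagen, differed by -0.40 ± 0.16. Markers of stellate cells, which make liver matrix and share Col3a1 with that list, had the higher mean after 18% in 8 of 10 genes, with a median of -0.16, or -0.30 without replicate 3 and -0.07 without replicate 4 of the 18% group; their summed linear level was 6321 to 6972 after 9% and 6350 to 7734 after 18%, and their part in the matrix values was not tested. In whole liver, fewer cells of a type and less RNA per cell cannot be told apart.

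The lipid lists were split. Fatty acid synthesis had the higher mean after 9% in 5 of 12 genes, cholesterol synthesis in 8 of 19 and triglyceride synthesis in 5 of 11, with medians of -0.06, -0.06 and -0.03. Hmgcs1, an early enzyme of the cholesterol pathway, ranged from 12.07 to 13.85 after 9% and from 13.43 to 14.06 after 18%, and differed by -0.70 ± 0.43. Gpd1, which supplies glycerol phosphate, differed by -0.50 ± 0.22. Mitochondrial fat oxidation (11 of 17 higher), LXR targets (5 of 10), PPAR-alpha targets (10 of 15) and gluconeogenesis (12 of 19) had medians of 0.04, 0.01, 0.08 and 0.02. In the bile acid list 8 of 19 had the higher mean after 9%, and the canalicular phospholipid transporter Abcb4 measured 11.25, 11.37, 11.02 and 11.27 after 9% and 12.35, 11.49, 11.45 and 11.99 after 18%, with no overlap and a difference of -0.60 ± 0.19.

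**Figure D4:**
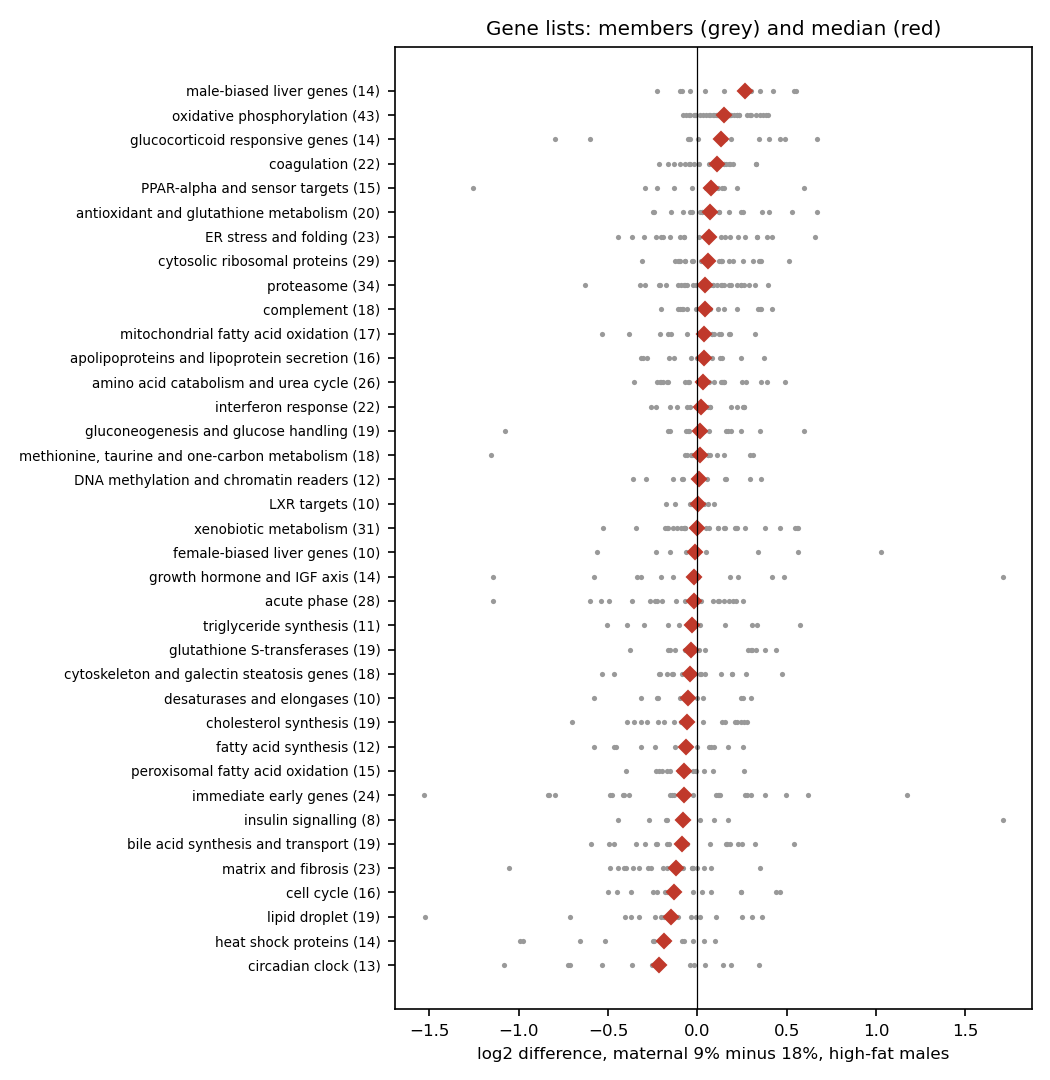
Log2 difference between maternal diets (horizontal axis, 9% minus 18%, high-fat males) for the genes of 37 lists, with the number of genes tested in brackets. Grey points are genes and red diamonds list medians; the medians run from -0.22 for circadian clock genes to 0.27 for male-biased liver genes, and no gene shown passed the test.

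The male-biased liver genes had the highest list median, 0.27, with 10 of 14 higher after 9%, but the median was -0.07 without replicate 1 of the 9% group. Circadian clock genes had the lowest, -0.22, with 9 of 13 lower after 9%, and it was 0.04 without replicate 3 of the 18% group. Dbp, a clock output factor, ranged from 7.65 to 11.28 after 9% and from 9.46 to 11.34 after 18%. Immediate early genes, which respond within minutes to handling or stress, had a median of -0.08. Of the 24 list genes only Dusp1, lower after 9%, had an unadjusted limma p under 0.05 (4.17%, beside 4.09% lower over all features). Fos measured 9.51, 9.75, 12.34 and 12.18 after 9% and 12.28 to 12.64 after 18%, so that 2 of the 9% livers were low. Fosb was detected in 3 livers after 9% and 4 after 18%, and its difference of 1.17 ± 1.06 had the opposite sign to that of Fos, -1.53 ± 1.04.

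On control diet the maternal contrast, which shares no array with the high-fat one, also gave 0 calls (0%), with 379 features at an unadjusted p under 0.05 (3.68%). Across the 10297 features, which are not independent and were fitted with 1 estimate of the spread, the differences on the 2 offspring diets had a Pearson correlation of -0.12 and a Spearman correlation of -0.18, and 43.3% had the same sign. The interaction called 0 features, with 699 at an unadjusted p under 0.05 (6.79%). Its smallest p was at Stoml2, with a fitted interaction of -0.72 ± 0.11 (limma adjusted p = 0.0544). Since its probe was above background on 0 of 8 control-diet arrays, and passed the filter only through the high-fat 18% group, this value rests on readings at background and no control-diet difference is given for it. Dner followed with -0.75 and 0.70, an interaction of -1.44 ± 0.24 (limma adjusted p = 0.0927). P2ry6 and Myom2 came next, both with a limma adjusted p of 0.124: P2ry6, a nucleotide receptor, had -0.39 and 0.79, and Myom2 -0.61 and 0.60. Dner was above background on 4 of 8 control-diet arrays, all after 9%, and on 0 high-fat arrays after 9%. Its probe thus passed the detection filter only through groups in which it was high. The negative sign of its interaction was therefore favoured before the test. Myom2 too was above background on 0 high-fat arrays after 9%, so its interaction rests partly on readings at background. Under some other settings 1 to 4 genes passed the interaction test, Stoml2 among them each time.

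**Figure D5:**
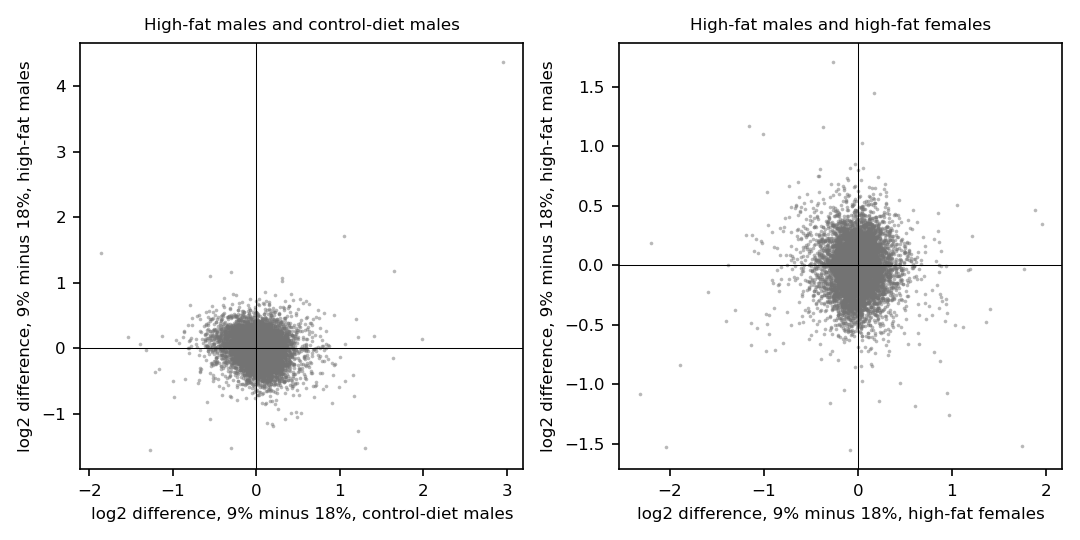
Log2 difference between maternal diets (9% minus 18%) in high-fat males (vertical axes) against control-diet males (left, 10297 features) and high-fat females (right, 6941 genes measured on both array versions). Each point is a feature; the compared groups share no array, the clouds centre on 0, and the Pearson correlations are -0.12 and -0.02.

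High-fat females gave 0 calls of 9446 features for the same maternal contrast (0%), with 898 at an unadjusted p under 0.05 (9.51%). Over 6941 genes measured on both versions, 4686 by the same probe, the sex difference of the maternal effect also called 0 (0%), with 571 at an unadjusted p under 0.05 (8.23%) and a smallest adjusted p of 0.375. The male and female differences had a Pearson correlation of -0.02 and a Spearman correlation of 0.01, and 50.8% had the same sign. The genes of smallest p were Syt1, a calcium sensor of vesicle release, with 0.40 in males and -0.77 in females, Copb1, with -0.74 and 0.19, and Kpnb1, with -0.56 and 0.23. For Syt1 the male and female values come from different probes. Cyp26a1 differed by -0.37 ± 0.40 in females, Fgf21 by 0.97 ± 0.48 and G0s2 by 1.75 ± 0.71, each with the opposite sign to males and none past the test. Others of the 24 genes of smallest p, such as Lamp2 and Lsm12, had the same sign in both sexes. Sex and array version cannot be told apart in levels.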

How the data were processed

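Liver RNA was hybridised to Illumina bead arrays, with 1 array per sample. The authors deposited background-subtracted intensity values not normalised between arrays, with a detection p-value per probe, per the file headers. A second table that the authors deposited holds intensity values that share their quantiles; it was used as an alternative. The submitters' processing notes name BeadStudio, with no version given in the sources used here. Depth has no counterpart on arrays, and the number of arrays limits precision.

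The 16 male arrays were normalised together with neqc in limma 3.58.1 (R 4.3.3), with an offset of 16. Of 24613 probes, 20984 had 1 gene symbol in the platform annotation, 1 had several and 3628 none. The 12173 probes detected (p under 0.05) on 4 or more of the 16 arrays were kept, and the brightest per gene was tested: 8840 named and 1457 unnamed features. All values are normalised log2 intensity, and compare 1 probe between samples. lmFit and eBayes with an intensity trend were fitted over the 4 male groups (two-sided, Benjamini-Hochberg, threshold 0.05); errors are moderated SE. A probe detected on 0 arrays of a group got a bound, with its level taken, per array, as the higher of its own and the lowest detected signal. Sexes were normalised apart and joined by gene.

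Named genes were the 24 of smallest p, a list of metabolic genes looked up, the 2 members of smallest p per list and 3 genes per further comparison; genes named for a large difference, and other list members, were picked once their values had been seen. A few looked-up genes are not reported here. The 48 lists, some with shared genes, and the members were chosen with earlier results of these data known. Alternatives were the deposited normalised values, quantile normalisation without a background model, filters, trend, covariate, replicate block, weights, fewer arrays and single probes. On simulated data with 200 changed genes of 10297, the main comparison recovered 20 of 67 changed by 0.5, 59 of 67 by 1 and 66 of 66 by 2 (log2). It made 7 false calls. These shares hold for that simulated setting, with 200 genes changed, and are not the recovery rate for the real livers. Figures were drawn with matplotlib 3.10.9 (Python 3.11.15).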

Additional observations from a re-analysis of the deposited data

Results flagged for a closer look

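In groups of 4 livers, a value was flagged where its gap to the nearest of the others, divided by the range of the group, passed Dixon's 95% critical value for 4 samples. Chance flags about 1 in 20 groups, and 5 of the 80 pairs of gene and group checked were flagged. Cidea was 10.5 in replicate 2 after 9% against 6.81 to 7.11 in the others, and Fgf21 was 9.80 in replicate 4 after 9% against 7.15 to 7.57. Entpd3 was 4.40 in replicate 4 after 9% against 10.25 to 10.28. After 18%, Rpl29 was 8.83 in replicate 1 against 8.61 to 8.64, and Rnf103 was 10.7 in replicate 2 against 11.18 to 11.26. The causes were not tested.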

How the results depend on the processing

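The main comparison called 0 features under all 18 alternatives tried, with 416 to 1196 at an unadjusted p under 0.05. The 24 genes of smallest p kept their sign in all 427 values under alternatives. That was favoured in advance, since they were chosen by p on the same arrays. None of the 24 passed the threshold, and the lowest limma adjusted p was 0.0508, for Stoml2 with array weights. Of the 15 looked-up genes tested, 7 changed sign under some alternative (Apoa4, Cyp4a14, Cyp7a1, Nr1h3, Pck1, Ppara and Scd1) and 0 passed. The sex difference stayed at 0 calls under every alternative run for it. On control diet 3 genes, Dner, Myom2 and Stoml2, were called with the deposited normalised values, and the same 3 with quantile normalisation and no background model. Both of these settings set values under 1 to 1 before log2. The Stoml2 probe was not above background on any control-diet array. Its control-diet calls therefore compare readings at background, and its interaction calls rest partly on them. The interaction called Dner, Myom2 and Stoml2 under both normalisations. It called 1 (Stoml2) with no filter on dim probes, and 2 (Stoml2 and Dner) with raw intensity as a covariate. Leaving out 1 replicate at a time gave 0 to 4 interaction calls: Stoml2 without replicate 1 or 3 of the high-fat 18% group, and Stoml2, Dner, Myom2 and Zfp661 without its replicate 4. For some dim probes the deposited values gave larger differences, in high-fat males -2.98 for Tuba1a against -0.64, and -3.51 for Myom2 against -0.61. The intensity difference, left out in turn after the data were seen, ran from -18.3 to 27.01. With the replicate block there were 0 calls and 755 features at an unadjusted p under 0.05; deviations of same-numbered livers correlated at -0.13 to 0.15, and 1 of 4 correlated best with its own number, so the numbers were not taken to pair the livers. Slide as a block was not run, since slides are not in the labels. In simulation the interaction recovered 8 of 67 genes changed by 0.5 and 39 of 67 changed by 1, with 3 false calls. List medians were recomputed under the same alternatives, a choice made after the data were seen.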

Other observations

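Markers of other blood and immune cells gave 0 calls. Macrophage markers had the higher mean after 9% in 10 of 15 genes, with a median of 0.10, against 15 of 15 and 0.37 in control-diet males and 3 of 18 and -0.11 in high-fat females. In high-fat males that median was -0.05 without replicate 2 of the 18% group and 0.26 without its replicate 4. Neutrophil markers had the higher mean after 9% in 4 of 6 genes, with a median of 0.15, and lymphocyte markers in 6 of 9, with a median of 0.07. As the members of smallest p in these 3 lists, Cd14, a receptor for bacterial lipopolysaccharide, differed by 0.72 ± 0.41 and the neutrophil gene S100a8 by 0.74 ± 0.47 in high-fat males. The chemokine Ccl5, of the lymphocyte list, differed by 0.69 ± 0.34. Immediate early genes had the higher mean after 9% in 11 of 24 genes in high-fat males, in 22 of 24 in control-diet males, with a median of 0.38, and in 1 of 22 in high-fat females, with a median of -0.56. In control-diet males single livers stood apart by the median deviation of the list genes. For immediate early genes replicate 1 after 18% was at -1.69, the others of its group at -0.06 to 0.34. The 9% livers were at -0.53 to 0.42. For macrophage markers replicate 1 after 9% was at 0.82, the others of its group at -0.27 to 0.32. The 18% livers were at -0.46 to -0.07. The high-fat male, control-diet male and high-fat female contrasts share no array, and the difference of list medians between them was not tested.

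The transcription factor Snai2 measured 7.25, 8.11, 7.64 and 8.41 after 9% and 6.87, 6.77, 6.52 and 6.95 after 18%, with no overlap and a difference of 1.08 ± 0.42 (limma adjusted p = 0.694). Csad, an enzyme of taurine synthesis, ranged from 8.57 to 11.19 after 9% and from 10.38 to 12.15 after 18%, a difference of -1.15 ± 0.56. Socs3, an inhibitor of cytokine signalling, differed by -1.14 ± 0.70.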
